A study of Mus musculus with 37 samples.

Results

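The regulators of mitochondrial biogenesis were examined in left ventricular (LV) RNA of mice after cardiac arrest. They are 10 genes chosen by name among 56748 genes of the expression table: the coactivators Ppargc1a and Ppargc1b, the nuclear receptors Esrra, Esrrg and Ppara, the nuclear respiratory factors Nrf1 and Gabpa, and the mitochondrial transcription factors Tfam, Tfb1m and Tfb2m. They are described next to 82 nuclear genes of the respiratory complexes, called subunits here. That list includes Atpif1, which encodes the inhibitory factor of complex V and not a subunit. All 10 were in the table and passed the filter on low values.

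Bulk RNA sequencing covered 37 C57BL/6J mice of both sexes, 8 to 10 weeks old, with 1 library per mouse. The Naïve group (n = 5, labelled no intervention) was anaesthetised but received no injection. Adr mice (labelled sham) were anaesthetised, ventilated and injected with saline into the left ventricle, followed after 8 min by 500 µL of adrenaline at 15 µg/mL. Arrest mice had potassium chloride injected in place of saline, 8 min of asystole, the same adrenaline and chest compressions. Collection was at day 0.5, day 1, day 3 or day 7 in both arms (n = 4 in each of the 8 groups). A comparison with Naïve thus also holds the intubation and the ventricular injections, which Naïve mice did not have. It also holds the recovery time and a repeat echocardiography, since Naïve mice were euthanised after their baseline imaging. The apex was discarded, and the labels do not give the sex of single mice.

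Mitochondrial biogenesis is run by a layered set of nuclear genes. The coactivators PGC-1α and PGC-1β, encoded by Ppargc1a and Ppargc1b, do not bind DNA themselves. They are recruited by receptors such as ERRα and ERRγ (Esrra, Esrrg) and PPARα (Ppara), and by NRF1 and the ETS factor GABPα (Gabpa). These factors bind promoters of respiratory subunits and of TFAM, TFB1M and TFB2M. TFAM packages and, with TFB2M, starts transcription of the mitochondrial genome, whereas TFB1M modifies the ribosomal RNA of mitochondrial ribosomes. In the heart, PPARα and the ERRs are best known for driving genes of fatty acid oxidation and oxidative phosphorylation.

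Libraries held 13.2 to 30.2 M fragments (M, mega) counted on genes. The ventricle markers Myl2, Myl3 and Irx4 were above 0 in every library, and Hand1, the fourth of that list, had a median of 0 and at most 0.544 FPKM. The 4 atrium markers Myl7, Myl4, Sln and Nppa summed to 13.8 to 32.4 FPKM in Naïve. Their highest sums were 693 in Adr at 1 day, 198 in Adr at 7 days and 256 in Arrest at 7 days. The libraries thus differed in atrium marker RNA, and its part in the differences was not tested. The library Adr 3 d replicate 3 stood apart: mitochondrial genome transcripts took 9.36% of its fragments against 20.8 to 30.9% in the other 36 libraries. Its 7 cardiomyocyte markers summed to 3545 FPKM against 8332 to 15547, its 7 macrophage markers to 2925 against 401 to 1382, and its 6 fibroblast markers to 1084 against 235 to 680. Its 4 atrium markers summed to 485 FPKM against 11.8 to 693. FPKM are fragments per kilobase of gene per M fragments, and the deposited values use a depth already levelled between libraries rather than the fragments counted. The study left out 1 Adr sample at 3 days for poor quality, and the labels do not say which. Results are therefore given with this library and, where it changes them, without it. In bulk tissue, fewer cells of a type and less RNA per cell cannot be told apart.

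In Naïve hearts Esrra was the highest of the 10 genes, with 29.2 ± 9.45 FPKM (SD, n = 5), followed by Tfb2m with 17.3 ± 1.56 and Ppargc1a with 12.2 ± 2.37. Tfam (9.82 ± 0.66), Gabpa (8.36 ± 1.66), Ppara (7.49 ± 0.98) and Esrrg (6.39 ± 0.65) formed a middle range. Ppargc1b (3.16 ± 1.04), Tfb1m (1.82 ± 0.58) and Nrf1 (1.33 ± 0.33) were lowest. Neighbours in this order overlapped in their libraries, except that every Tfb2m value lay above every Ppargc1a value and every Esrrg value above every Ppargc1b value. FPKM divide by a gene length (10282 bases for Nrf1, 3609 for Tfb1m, 2804 for Tfb2m) that need not be that of the transcript expressed. The order of the genes therefore also rests on these lengths. Over all 37 libraries Esrra was highest in 36 and Nrf1 lowest in 20, with Tfb1m lowest in 12 and Ppargc1b in 5. The low genes rested on few fragments. Over the 36 libraries other than Adr 3 d replicate 3, the median was 94 per library for Tfb1m, 157 for Ppargc1b and 233 for Nrf1 against 1993 for Esrra.

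**Figure D1:**
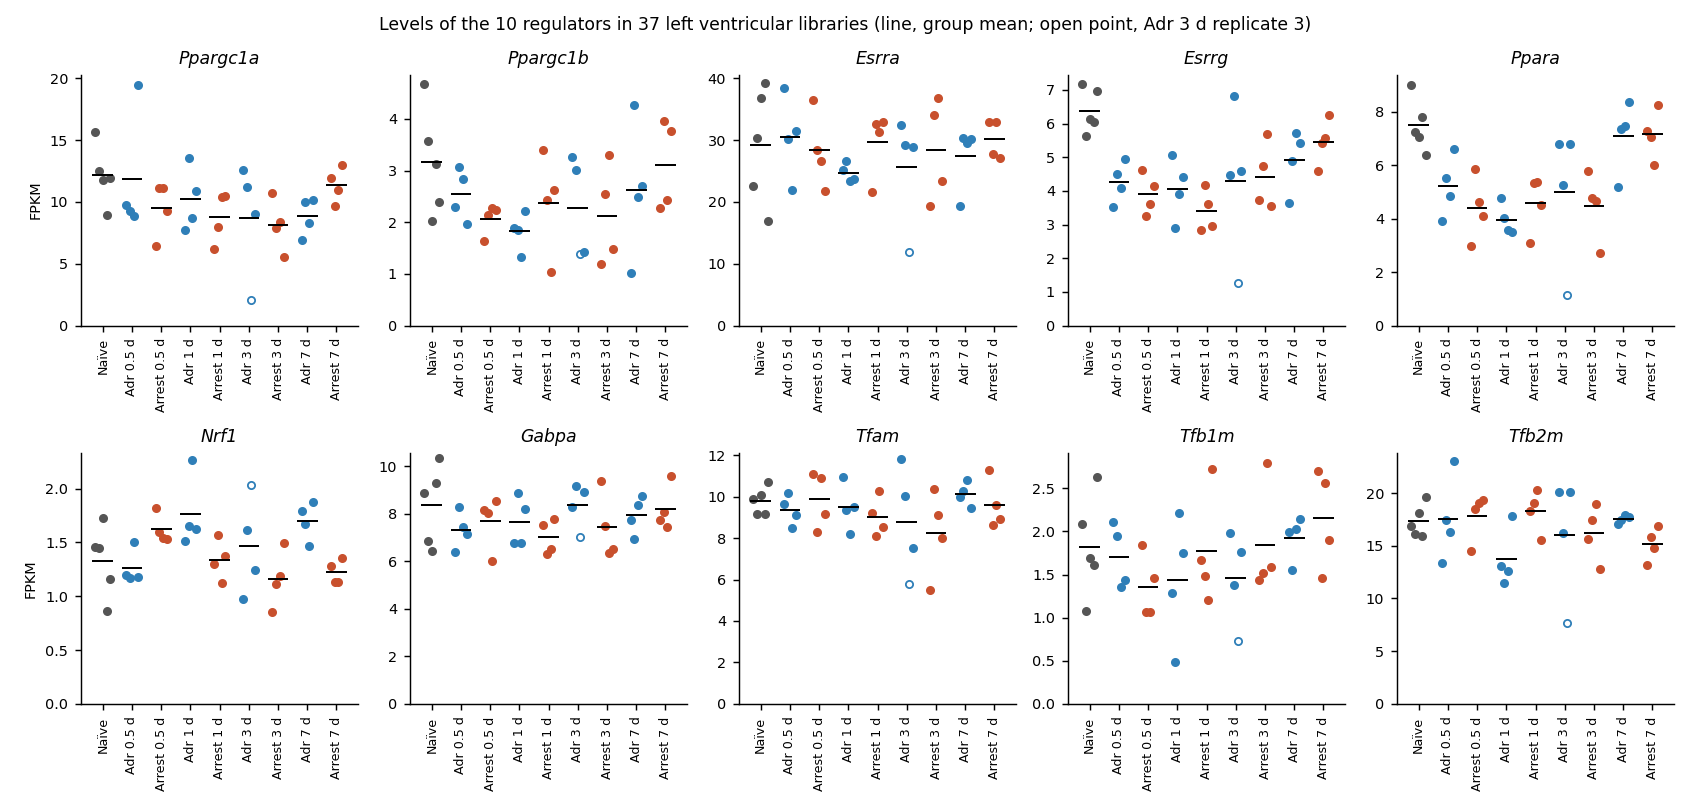
Level of each regulator (FPKM, y axes from 0) in each of the 37 libraries by group, with the group mean as a line, Naïve in grey, Adr in blue and Arrest in red. At 0.5 and 1 day the group means of Esrrg and Ppara lie below all Naïve libraries in both arms, while 1 Ppara library of Adr at 0.5 days (6.62) lies above the lowest Naïve library (6.39). Adr 3 d replicate 3 (open point) is the lowest library of Ppargc1a, Esrra, Esrrg, Ppara and Tfb2m.

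The largest differences from Naïve were those of the nuclear receptors Ppara and Esrrg. Among the 10 genes, only Esrrg passed the test in any comparison with Naïve, and there only in Arrest hearts at 1 day, where it fell. The test was limma on log2(FPKM + 1) over 16530 genes, with Benjamini-Hochberg adjusted p of at most 0.05. At 1 day of Arrest this was 1 of 10, against 7.11% of all genes tested. At 0.5 days of Arrest 0 of 10 passed (background 3.21%). In Adr hearts 0 of 10 passed at 0.5 days (background 0.188%) and at 1 day (background 0.69%). At 3 days 0 of 10 passed in Arrest (background 0.139%) and in Adr (background 0%), and at 7 days 0 of 10 in either arm (background 0% in both). The limma-voom test on recovered fragments gave the same counts of passing genes in all 8 comparisons.

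The counts at an unadjusted limma p of 0.05 or less are read against the share of all genes at that level. In Arrest they were 2 of 10 at 0.5 days (18.2% of all genes), 2 of 10 at 1 day (21.7%), 2 of 10 at 3 days (13.7%) and 0 of 10 at 7 days (5.15%). In Adr they were 1 of 10 at 0.5 days (14% of all genes), 4 of 10 at 1 day (14.7%), 3 of 10 at 3 days (13.9%) and 0 of 10 at 7 days (6.15%). Apart from Adr at 1 and 3 days, these counts were at most 1 gene from the share of all genes.

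Most of the differences from Naïve lay below 0. Of the 10 genes, 9 had a log2 fold change below 0 in Adr at 0.5 and 1 day and in Arrest at 3 days, 8 in Adr at 3 days and Arrest at 7 days, 7 in Arrest at 0.5 and 1 day, and 6 in Adr at 7 days. The median over the 10 ranged from -0.24 (Adr 1 day) to -0.04 (Arrest 7 days), while the median over all genes tested ranged from 0.01 to 0.04. Without Adr 3 d replicate 3, the Adr median at 3 days moved from -0.20 to -0.03 and 7 genes lay below 0 there. These counts share the same 5 Naïve libraries.

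**Figure D2:**
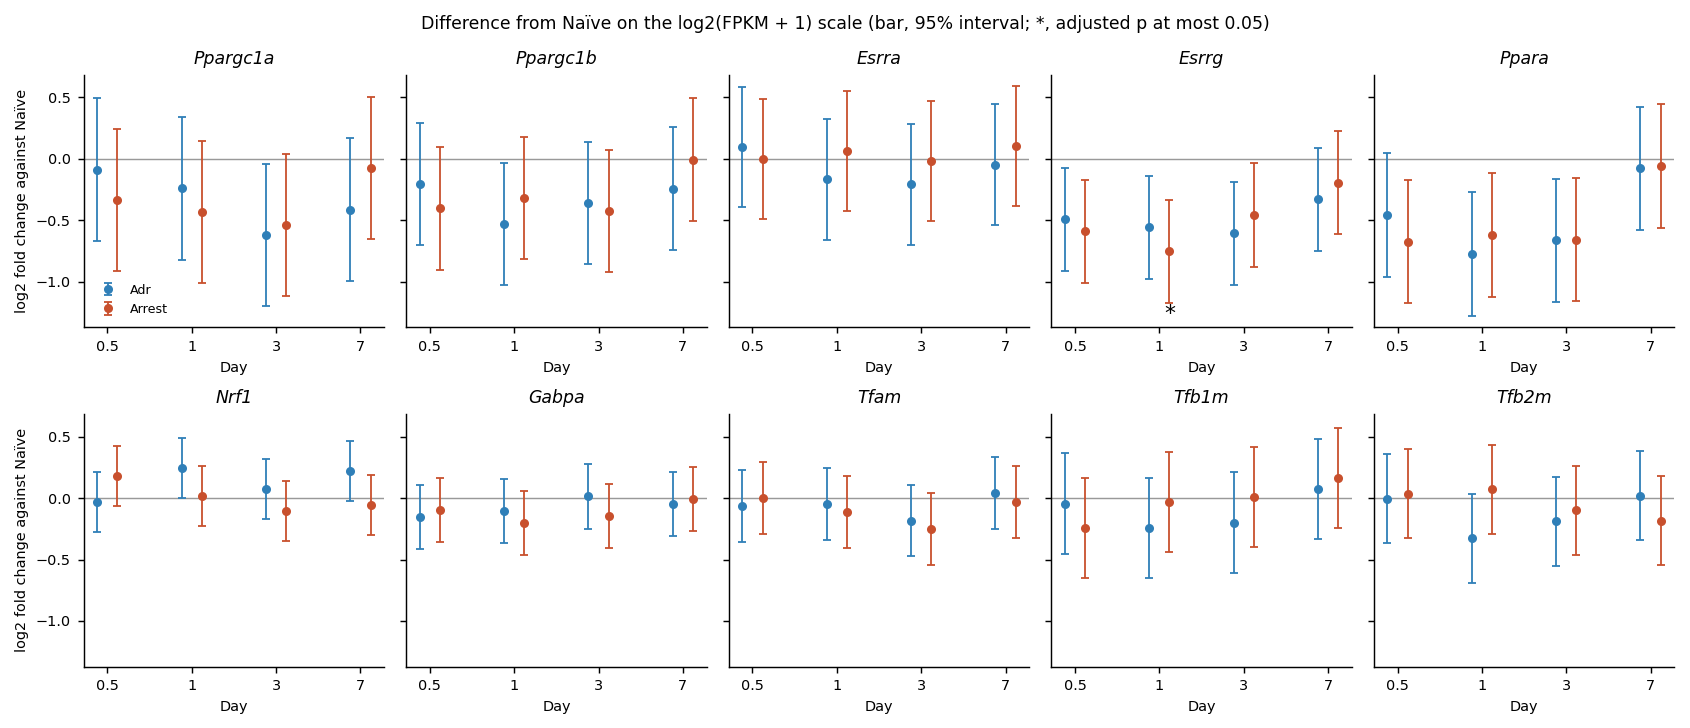
Log2 fold change of each regulator against Naïve on the log2(FPKM + 1) scale, by day, in Adr (blue) and Arrest (red), with 95% intervals from the limma fit. The asterisk marks the 1 value that passed, Esrrg in Arrest at 1 day (-0.75), and the intervals of Esrra, Gabpa and Tfam include 0 at every day.

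Esrrg encodes ERRγ, an orphan receptor of oxidative tissues such as heart. The 5 Naïve libraries held 7.16, 5.62, 6.14, 6.05 and 6.96 FPKM, and the 4 Arrest libraries at 1 day held 2.83, 4.19, 3.60 and 2.96. The groups did not overlap, and the log2 fold change was -0.75 (SE 0.21, adjusted p = 0.0226, limma). Arrest libraries at 0.5 days held 4.63, 3.26, 3.61 and 4.15 FPKM, also below all Naïve libraries (log2 fold change -0.59, SE 0.21, limma adjusted p = 0.106). Values at 3 days were 3.72, 4.74, 5.69 and 3.55, and at 7 days 4.6, 5.43, 5.58 and 6.24. By 7 days the Arrest libraries overlapped with Naïve again.

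The Adr arm showed a like course of Esrrg. Adr libraries held 3.52, 4.50, 4.09 and 4.96 FPKM at 0.5 days and 5.07, 2.89, 3.90 and 4.41 at 1 day, every one below the lowest Naïve library. Their log2 fold changes were -0.49 (SE 0.21, adjusted p = 0.268) and -0.56 (SE 0.21, adjusted p = 0.189) by limma, and neither passed. At 3 days the values were 4.48, 6.81, 1.27 and 4.58, the third being the library that stood apart, and at 7 days 3.65, 4.89, 5.73 and 5.42. In order of group means Esrrg ran from Naïve (6.39 ± 0.65 FPKM, n = 5) over Arrest at 7 days (5.46 ± 0.68, n = 4) down to Arrest at 1 day (3.40 ± 0.63, n = 4), and neighbouring groups differed by less than their SD except Naïve and Arrest at 7 days.

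The Esrrg call at 1 day depended on the fit. It was lost with the number in the sample description as a covariate (-0.61, limma adjusted p = 0.403), and the replicate number as a block gave an adjusted p of 0.0617 by limma. Every Naïve library has a higher description number than every Arrest library at 1 day, so number and group are confounded in this comparison. The call was kept when the gene-length trend of each library was removed (-0.72, limma adjusted p = 0.0439). It was also lost when Naïve replicate 1 (adjusted p = 0.0502) or Arrest 1 d replicate 1 (0.0808), replicate 3 (0.0546) or replicate 4 (0.051) was left out of the limma fit. The log2 fold change lay between -0.84 and -0.69 over the 10 fits that left out 1 library.

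Ppara encodes PPARα, the receptor that fatty acids activate. Naïve libraries held 8.996, 7.22, 7.06, 7.78 and 6.39 FPKM. The Arrest libraries held 2.98, 5.86, 4.61 and 4.11 at 0.5 days, 3.10, 5.33, 5.37 and 4.52 at 1 day and 5.79, 4.75, 4.64 and 2.70 at 3 days. All 12 lay below the lowest Naïve library. The log2 fold changes were -0.67, -0.62 and -0.66 (SE 0.25 each), with limma adjusted p of 0.124, 0.124 and 0.213, so none passed. At 7 days the values were 7.29, 7.06, 6.01 and 8.25, within or near the Naïve range (log2 fold change -0.06, SE 0.25).

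In the Adr arm Ppara held 3.92, 5.53, 4.86 and 6.62 FPKM at 0.5 days, where 1 library reached into the Naïve range, and 4.75, 4.01, 3.56 and 3.50 at 1 day, where none did. The 1 day value was the lowest group mean of Ppara (3.95 ± 0.58, n = 4) and its largest difference from Naïve (-0.78, SE 0.25, limma adjusted p = 0.122). Adr libraries at 3 days held 6.79, 5.26, 1.12 and 6.79, and at 7 days 5.19, 7.35, 7.45 and 8.36. In both arms the group means at 7 days, 7.09 ± 1.34 in Adr and 7.15 ± 0.92 in Arrest, differed from Naïve by less than their SD.

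Esrra encodes ERRα, the partner through which PGC-1α reaches many respiratory genes. Its group means ranged from 24.8 ± 1.46 FPKM (Adr 1 day) to 30.5 ± 6.72 (Adr 0.5 days), and each group overlapped with the Naïve libraries, which ran from 16.9 to 39.2. The log2 fold changes lay between -0.21 and 0.10 (SE 0.24 each), and no comparison passed. The related receptors thus differed in level and in course in these libraries, the fold changes of Esrra being at most 0.21 in size while the group means of Esrrg and Ppara lay low at 0.5 and 1 day. That difference between genes was not tested.

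The regulators whose libraries did not overlap with Naïve were receptors in every comparison. There was 1 of 10 in Adr at 0.5 days (Esrrg), against 6.33% of all genes tested in either direction. Both Esrrg and Ppara did not overlap, 2 of 10, in Arrest at 0.5 days (background 8.2%), Adr at 1 day (background 5.25%) and Arrest at 1 day (background 10.5%). At 3 days there was 1 of 10 in Arrest (Ppara, background 3.51%) and 0 of 10 in Adr (background 2.38%). At 7 days there were 0 of 10 in Adr (background 1.79%) and in Arrest (background 1.69%). Every non-overlapping regulator was lower than Naïve.

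Promoters of the receptors are shown because Esrrg and Ppara had the largest differences and Esrra had little. The sequences are the 250 bases before the start, from RefSeq on GRCm38.p6, read along the gene, and capitals mark a match to NRF1's core GCGCATGC on either strand. Of the 10 regulators, 9 had a promoter in that table, with 13 starts in all. Ppara has 1 start (chr15:85735526-85735775, plus strand), with 2 overlapping matches on opposite strands that begin 31 and 29 bases before it. Esrra has 1 start (chr19:6921809-6922058, minus strand), with a match that begins 34 bases before it. Esrrg has 4 starts, none with a match, and the most upstream is printed (chr1:187608756-187609005, plus strand).
Ppara: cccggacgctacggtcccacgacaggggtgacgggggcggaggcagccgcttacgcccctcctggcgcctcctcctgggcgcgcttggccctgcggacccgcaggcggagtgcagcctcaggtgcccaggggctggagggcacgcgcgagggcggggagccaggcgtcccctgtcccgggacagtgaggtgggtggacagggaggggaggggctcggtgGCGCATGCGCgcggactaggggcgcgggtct
Esrra: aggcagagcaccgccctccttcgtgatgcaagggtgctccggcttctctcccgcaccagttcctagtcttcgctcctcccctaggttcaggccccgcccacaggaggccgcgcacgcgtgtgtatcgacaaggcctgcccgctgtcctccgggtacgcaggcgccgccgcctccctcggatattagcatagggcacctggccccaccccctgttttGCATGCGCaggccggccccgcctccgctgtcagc
Esrrg: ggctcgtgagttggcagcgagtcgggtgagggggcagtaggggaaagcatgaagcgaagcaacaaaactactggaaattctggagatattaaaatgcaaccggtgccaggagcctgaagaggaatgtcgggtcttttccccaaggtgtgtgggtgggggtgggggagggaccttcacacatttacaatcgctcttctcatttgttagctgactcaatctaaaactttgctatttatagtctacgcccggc
Over windows from 250 bases before to 50 after the start, the NRF1 core was found in 3 of 9 regulator genes, the third being Tfb2m with a match 14 bases into the transcript. Counted by promoter, it was in 3 of 13 of the regulators, in 2.71% of 32851 promoters and in 13.7% of 73 promoters of respiratory subunit genes. The half-site of the ERRs, AAGGTCA, and the cyclic AMP response element TGACGTCA were in 0 of 13 regulator promoters, against 4.72% and 1.79% of all promoters. A match is only a run of letters, and its absence says nothing about binding.

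The coactivators did not pass in any comparison. Ppargc1a, whose product PGC-1α is induced by cold, fasting and exercise, held 15.6, 12.5, 11.8, 8.96 and 11.9 FPKM in Naïve. The Arrest libraries held 6.41, 11.1, 11.1 and 9.29 at 0.5 days, 6.21, 7.99, 10.4 and 10.5 at 1 day, 10.7, 7.89, 8.36 and 5.57 at 3 days, and 11.9, 9.66, 10.99 and 12.96 at 7 days. Arrest libraries tended to lie in the lower part of the Naïve range or under it up to 3 days, and each group overlapped with Naïve. The log2 fold changes in Arrest were -0.34, -0.44, -0.54 and -0.08 (SE 0.28 each, lowest limma adjusted p = 0.395).

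Adr libraries of Ppargc1a held 9.70, 9.30, 8.88 and 19.4 FPKM at 0.5 days, 7.69, 13.6, 8.71 and 10.8 at 1 day, 12.6, 11.2, 2.05 and 9.05 at 3 days and 6.91, 10, 8.28 and 10.2 at 7 days. The value of 19.4 was the highest of all 37 libraries and that of 2.05, in Adr 3 d replicate 3, the lowest. The log2 fold change at 3 days was -0.62 (SE 0.28, limma adjusted p = 0.326) with that library and -0.13 (SE 0.22) without it. Ppargc1b, for PGC-1β, ran from 2.02 to 4.68 FPKM in Naïve, and its group means from 1.82 ± 0.37 (Adr 1 day) to 3.11 ± 0.88 (Arrest 7 days) in the other groups. Its lowest log2 fold change was -0.53 (SE 0.24, limma adjusted p = 0.302), in Adr at 1 day.

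The nuclear respiratory factors did not pass in any comparison. Gabpa, the DNA-binding subunit of the GABP factor, had group means from 7.04 ± 0.73 FPKM (Arrest 1 day) to 8.36 ± 0.96 (Adr 3 days), against 8.36 ± 1.66 in Naïve, with log2 fold changes from -0.20 to 0.01 (SE 0.13 each). Nrf1, the gene of the nuclear respiratory factor and not of the antioxidant factor of similar name, had group means from 1.16 ± 0.26 (Arrest 3 days) to 1.76 ± 0.34 (Adr 1 day). It had the largest positive fold change against Naïve of the 10 regulators, 0.25 (SE 0.12, limma adjusted p = 0.329) in Adr at 1 day. Nrf1 is a low gene, for which the log2(FPKM + 1) scale understates changes.

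The mitochondrial transcription factors did not pass either. Tfam, which coats mitochondrial DNA, held 9.91, 9.16, 10.1, 9.18 and 10.7 FPKM in Naïve and 9.20, 8.10, 10.3 and 8.55 in Arrest at 1 day (log2 fold change -0.11, SE 0.14). Its log2 fold changes over the 8 comparisons lay between -0.25 and 0.04. Tfb2m had group means from 13.8 ± 2.78 (Adr 1 day) to 18.3 ± 2.0 (Arrest 1 day), against 17.3 ± 1.56 in Naïve. Tfb1m had group means from 1.36 ± 0.37 (Arrest 0.5 days) to 2.15 ± 0.58 (Arrest 7 days), and its within-group coefficient of variation of 30.7% stood beside a counting error of 10.3% in a library of median depth.

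Tfam and Gabpa are the regulators with a match to the ETS motif CCGGAAG that GABP binds, shown in capitals in the 250 bases before the start (RefSeq, GRCm38.p6). In Tfam (chr10:71238045-71238294, minus strand) the match begins 47 bases before the start, and in Gabpa itself (chr16:84834874-84835123, plus strand) it begins 93 bases before, on the opposite strand.
Tfam: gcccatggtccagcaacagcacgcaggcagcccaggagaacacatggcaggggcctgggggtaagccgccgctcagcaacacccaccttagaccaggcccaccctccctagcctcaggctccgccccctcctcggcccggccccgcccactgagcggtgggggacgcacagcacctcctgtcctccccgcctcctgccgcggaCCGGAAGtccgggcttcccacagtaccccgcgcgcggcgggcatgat
Gabpa: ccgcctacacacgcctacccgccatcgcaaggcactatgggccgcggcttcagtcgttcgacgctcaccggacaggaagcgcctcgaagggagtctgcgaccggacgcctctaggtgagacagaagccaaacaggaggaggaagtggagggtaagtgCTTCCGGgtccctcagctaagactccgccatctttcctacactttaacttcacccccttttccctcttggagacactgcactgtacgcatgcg
This motif was in 2 of 13 regulator promoters, 8.86% of all promoters and 23.3% of the promoters of respiratory subunit genes, searched on both strands. The motif searches rest on exact letters, and no binding was measured.

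Arrest was compared with Adr at the same time, as both arms had ventilation, ventricular injections and adrenaline. The difference holds the potassium chloride and the chest compressions together with the asystole, and these cannot be told apart. Among the regulators 0 of 10 passed at 0.5 days, at 1 day and at 3 days (limma, background 0% in each), and 0 of 10 at 7 days (background 0.00605%, which is 1 gene). At an unadjusted p of at most 0.05 there were 0, 1, 0 and 1, where all genes gave 3.86%, 6.59%, 5.37% and 2.52%. The 2 were Tfb2m at 1 day (0.40, SE 0.19, 95% interval 0.02 to 0.78) and Nrf1 at 7 days (-0.28, SE 0.13). The limma-voom test also gave 0 in each. For Esrrg the difference between the arms at 1 day was -0.20 (SE 0.22), with a 95% interval from -0.64 to 0.25. The interval for Ppara at 1 day ran from -0.37 to 0.69. These intervals leave room for differences in either direction, so the arms are not shown to be alike.

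A single test of any difference among the 9 groups (moderated F test of limma) called 0 of 10 regulators, against 3.9% of all genes. Ppara came nearest (limma adjusted p = 0.14), followed by Esrrg (limma adjusted p = 0.221), and these 2 were the only ones at an unadjusted p of 0.05 or less (17.4% of all genes).

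Leaving out Adr 3 d replicate 3 changed these counts. That library was the lowest of the 37 in 5 of the 10 regulators, and the SE against Naïve was 0.21 with it and 0.14 without it for Esrrg, and 0.25 and 0.17 for Ppara. It held 0.203 of the median of the other 36 libraries in Ppargc1a, 0.206 in Ppara, 0.278 in Esrrg, 0.404 in Esrra and 0.447 in Tfb2m, but 0.905 in Gabpa and 1.40 in Nrf1. Without it the F test called 2 of 10 (Ppara, adjusted p = 0.00529, and Esrrg, adjusted p = 0.0148), against 6.18% of all genes. Esrrg and Ppara then fell in Arrest at 0.5 days (2 of 10, background 5.51%), in Adr at 1 day (2 of 10, background 2.52%) and in Arrest at 1 day (2 of 10, background 10.3%), and Ppara also in Arrest at 3 days (1 of 10, background 1.13%).

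The adjusted p of Esrrg in that limma fit were 0.0148, 0.0355 and 0.00106 in the order given, and those of Ppara 0.0161, 0.0136, 0.017 and 0.0462. In the other comparisons 0 of 10 passed without the library, in Adr at 0.5 days (background 1.35%), 3 days (background 0%) and 7 days (background 0%) and in Arrest at 7 days (background 0%). The fold changes of these groups do not contain the library and stayed as they were, apart from Adr at 3 days, where Esrrg moved from -0.61 to -0.25 and Ppara from -0.66 to -0.22. Its low cardiomyocyte and high macrophage and fibroblast markers moved with the low regulators, and their part was not tested. In Arrest at 1 day, where Esrrg fell, the cardiomyocyte marker sum was 13081 to 15528 FPKM against 12064 to 14271 in Naïve. The sum of 4 atrium markers was 32.7 to 72.7 against 13.8 to 32.4. The sum of 4 ventricle markers was 6549 to 8454 against 4511 to 5942, so these libraries did not overlap. The fibroblast sum was 285 to 380 against 248 to 327, and the neutrophil sum 5.81 to 19.3 against 0 to 9.74. The macrophage sum was 421 to 668 against 422 to 705, and the sum of 6 endothelial markers 147 to 213 against 174 to 191. Of those 6, Kdr (-0.92) and Cdh5 (-0.42) fell and Egfl7 (0.43) rose at that time. The part of these genes and of the marker sums was not tested.

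Respiratory subunit genes rose in the same hearts in which Esrrg fell. Of 82 nuclear subunit genes, 22 rose in Arrest at 1 day and 4 at 0.5 days, and none fell, by the same limma test. Among all 16530 genes 641 rose at 1 day and 290 at 0.5 days, and 7.11% and 3.21% were called in either direction. At 1 day 80 of 82 had a log2 fold change above 0, with a median of 0.53, while Esrrg stood at -0.75 and Ppara at -0.62. The limma-voom test called 23 at 1 day and 6 at 0.5 days. Complex IV had the highest share, 7 of 14 genes, including Cox7b (572 ± 46.8 FPKM in Naïve, n = 5, and 1088 ± 123 in Arrest, n = 4, log2 fold change 0.92, SE 0.22). Complex I followed with 9 of 37, including Ndufa11 (log2 fold change 1.08, SE 0.21) and Ndufa7 (0.92, SE 0.18). Complex III had 3 of 9, among them Uqcr10 (0.88, SE 0.19), complex V 3 of 18, among them Atp5e (0.93, SE 0.21), and complex II 0 of 4. The 4 genes that rose at 0.5 days were Ndufa11 (0.73), Ndufa7 (0.65) and Ndufc2 (0.63) of complex I and Cox6a1 (0.53) of complex IV.

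In the other comparisons with Naïve none of the 82 subunits passed (limma). Unadjusted p values of 0.05 or less were held by 33 in Adr at 0.5 days (14% of all genes) and 17 at 1 day (14.7%), and limma-voom called 0 in both. The Adr medians were 0.35 (day 0.5), 0.24 (day 1), -0.26 (day 3) and -0.01 (day 7), and those of Arrest 0.31, 0.53, 0.07 and 0.03. Without Adr 3 d replicate 3 the Adr median at 3 days became 0.12. Subunits that rose then numbered 15 in Adr at 0.5 days (background 1.35%) and 19 in Arrest at 0.5 days (background 5.51%). At 1 day they numbered 14 in Adr (background 2.52%) and 50 in Arrest (background 10.3%). Of the 13 subunits encoded in mitochondrial DNA, whose transcription TFAM and TFB2M serve, 0 passed in any comparison with Naïve (limma), with at most 4 at the unadjusted level. All genes gave 5.15% to 21.7% at that level.

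The count of subunits that rose changed with the treatment of gene length. Shorter genes had higher fold changes in general, with a Spearman correlation across the 16530 genes of -0.27 in Arrest at 1 day (genes are not independent replicates). The subunit genes are short, with a median of 1631 bases against 4426 in the regulators. Removing the length trend left 13 subunits that rose in Arrest at 1 day and 0 at 0.5 days, and quantile normalisation 10 and 0.

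**Figure D3:**
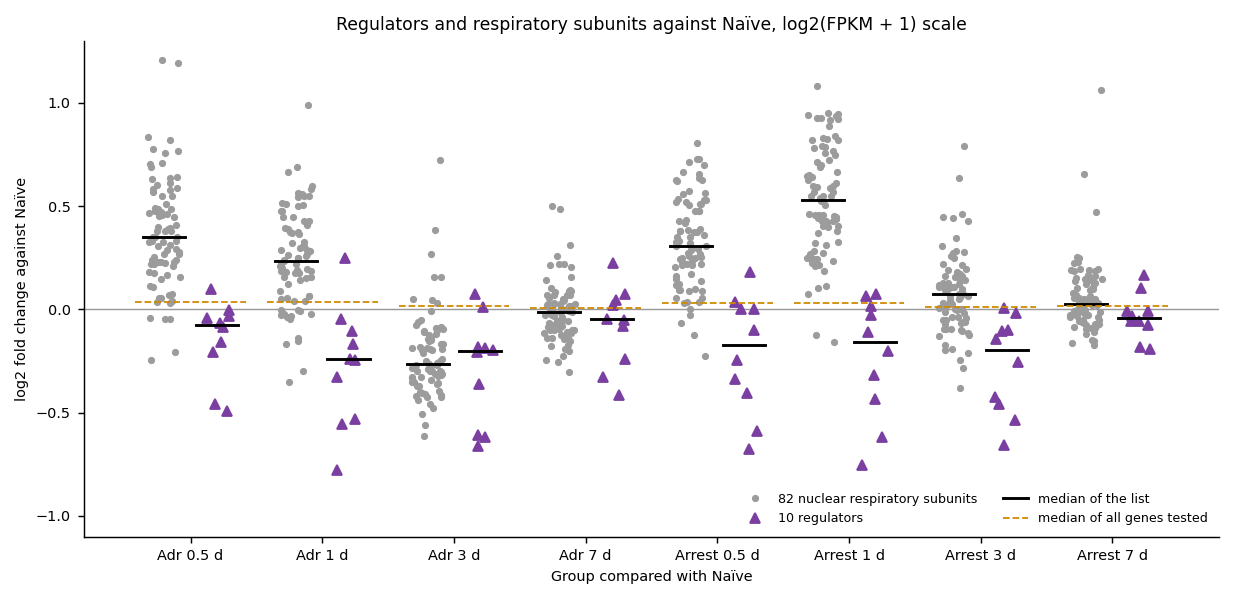
Log2 fold change against Naïve on the log2(FPKM + 1) scale of the 82 nuclear respiratory subunits (grey points) and the 10 regulators (purple triangles) in each group, with the median of each list (black line) and of all genes tested (dashed line). In Arrest at 1 day the subunit median is 0.53 and the regulator median -0.16, and at 7 days both medians lie near 0 in both arms.

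Across libraries the regulators and subunits were set side by side by the mean log2(FPKM + 1) of the 82 subunits. That mean was 7.72 ± 0.12 in Naïve (n = 5), 8.24 ± 0.15 in Arrest at 1 day (n = 4) and 6.39 in Adr 3 d replicate 3. Over 37 libraries its Pearson correlation was 0.66 with Esrra, 0.22 with Esrrg and 0.21 with Ppara. Over the 36 libraries without Adr 3 d replicate 3 these became 0.45, -0.40 and -0.41. After subtraction of each group's mean, all 37 libraries gave 0.78, 0.74 and 0.65, again with the outlying library included. These values describe libraries that share depth, scaling and group, and no test was made of them.

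**Figure D4:**
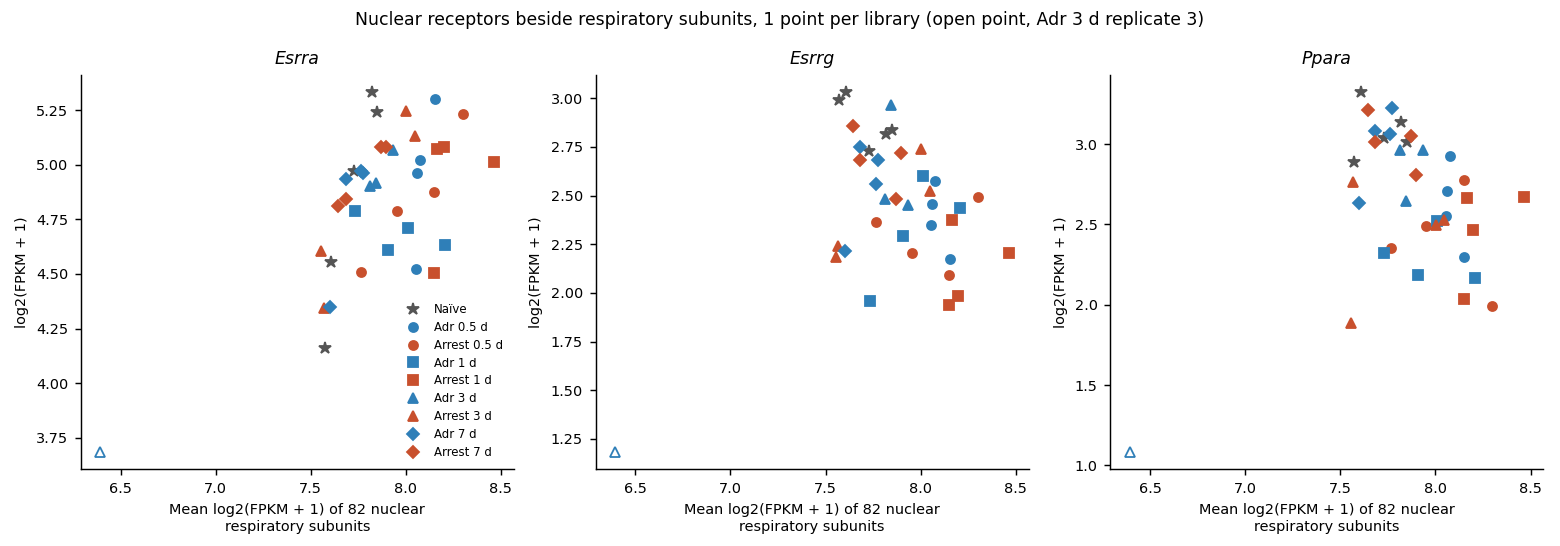
Level of Esrra, Esrrg and Ppara (log2(FPKM + 1), y axes not from 0) against the mean log2(FPKM + 1) of 82 nuclear respiratory subunits, with 1 point per library, colours by arm and shapes by day. Arrest libraries at 1 day sit at high subunit levels (mean 8.24) with low Esrrg, and the open point, Adr 3 d replicate 3, lies low on both axes in each panel.

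Other genes of the pathway were taken from lists. Of 26 partners and cofactors of the regulators, 0 rose, 2 fell in Arrest at 0.5 days (background 3.21%) and 4 at 1 day (background 7.11%). These were Mef2a (-0.46 and -0.60) and Mef2c (-0.54 and -0.58), factors that switch on Ppargc1a in muscle, and at 1 day also Prkaa2 (-0.66, SE 0.21, limma adjusted p = 0.0486), a catalytic subunit of the energy sensor AMPK, and Med1 (-0.50), a Mediator subunit that PGC-1α contacts. Mef2a held 13.1 ± 2.25 FPKM in Naïve and 8.28 ± 0.50 in Arrest at 1 day. The genes that fell are long, with 14681 bases for Mef2a, 15715 for Mef2c, 8753 for Med1 and 7969 for Prkaa2. Longer genes had lower fold changes in general, with a Spearman correlation of -0.25 in Arrest at 0.5 days and -0.27 at 1 day. The part of gene length in these falls was not tested. The medians over the 26 genes were -0.12 and -0.11. None of the 26 passed in Adr by limma, with 6 genes below the unadjusted level at 0.5 days (14% of all genes) and 6 at 1 day (14.7%).

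Of 27 fatty acid genes known as PPARα targets, 1 rose and 0 fell in Arrest at 1 day, against 7.11% of all genes called in either direction. The gene that rose was Plin5, which coats lipid droplets at mitochondria (47.7 ± 11 FPKM in Naïve, 109 ± 45.4 in Arrest, log2 fold change 1.09, SE 0.34, limma adjusted p = 0.0431). Of the 27, 24 had a fold change above 0 there, with a median of 0.29, in the same hearts in which Ppara itself stood at -0.62. Without Adr 3 d replicate 3, 8 rose at 1 day, among them Angptl4 (1.80) and Plin5 (1.09), and 1 fell, Vldlr (-0.65). The background in that fit was 10.3%. None of the 27 passed in the other comparisons with all libraries.

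Of 20 genes for copying and transcribing mitochondrial DNA, such as the polymerases Polg and Polrmt, 0 passed against Naïve in any group (limma), with 2 to 4 at the unadjusted level at 0.5 and 1 day. All genes gave 14% to 21.7% at that level then. Among 10 genes of mitochondrial fusion and fission, Opa1, which fuses inner membranes, fell in Adr at 1 day (-0.68, SE 0.16, limma adjusted p = 0.037) and in Arrest at 1 day (-0.55, SE 0.16, adjusted p = 0.026). It held 25.6 ± 2.47 FPKM in Naïve, 15.6 ± 0.81 in Adr and 17.0 ± 1.24 in Arrest at that time. Fis1, a fission factor of the outer membrane, rose in Arrest at 1 day (0.42, SE 0.12, limma adjusted p = 0.0234). The background at 1 day was 0.69% in Adr and 7.11% in Arrest. Opa1 has 7875 bases and Fis1 1714. Fold changes fell with gene length in general at that time (Spearman correlation -0.26 in Adr and -0.27 in Arrest), and the part of length was not tested.

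Among the regulators themselves, Esrrg and Ppara had the highest Pearson correlation over 37 libraries (0.76, and 0.64 over 36), followed by Ppargc1a and Ppara with 0.74 and 0.57. This order includes the differences between groups: after subtraction of group means 4 pairs stood above Esrrg and Ppara (0.68), with Ppargc1a and Ppara (0.83) first and Ppara and Tfb2m (0.75) next. Over all genes with a mean of at least 1 FPKM (11549 searched), the 3 genes nearest in pattern to Esrrg included Abcc9 (0.86, and 0.82 over 36), for a subunit of the cardiac ATP-sensitive potassium channel, and Pdk1 (0.86 and 0.77), a kinase of pyruvate dehydrogenase. Ppara was nearest to Zfp106 (0.86 and 0.77), Mfn2 (0.85 and 0.77), a fusion protein of the outer membrane, and Wfs1 (0.85 and 0.76). Esrra was nearest to Trim72 (0.89 and 0.84), Macrod1 (0.88 and 0.83) and Fastk (0.87 and 0.81), and the 3 nearest to Ppargc1a included Lmo7 (0.82 and 0.64) and Trim55 (0.79 and 0.60).

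The remaining regulators had nearest genes as follows. Tfam was nearest to E2f6 (0.80 and 0.73), Mtfp1 (0.80 and 0.72) and Yipf7 (0.80 and 0.73), and Tfb2m to Ablim1 (0.79 and 0.64), Acacb (0.77 and 0.58) and Rcan2 (0.77 and 0.58). The values were lower for Tfb1m, nearest to Thnsl1 (0.67), Blcap (0.65) and Hspb3 (0.63), for Gabpa, nearest to Bod1l (0.67), Scaper (0.66) and Bpnt2 (0.66), and for Ppargc1b, nearest to Nt5dc3 (0.66), Ggct (0.65) and Rtn4r (0.64). The 3 nearest to Nrf1 included Agpat4 (0.63) and AI467606 (0.63). Each is the highest of many correlations over libraries that share depth and group, and is given as a description. Within groups and without Adr 3 d replicate 3, the spread of the regulators was smallest in Tfam (coefficient of variation 13.3%), Tfb2m (13.9%) and Gabpa (14%), 17.3% in Esrrg and 18.9% in Ppara, and largest in Ppargc1b (35.3%).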

How the data were processed

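Per the study's methods, LV tissue was sequenced at Novogene, reads were aligned with HISAT2 and differential expression was tested by the authors with DESeq2. The deposited file is 1 table of FPKM for 56748 genes with gene lengths. In 100% of values the deposited FPKM gave whole fragments (tolerance 0.01 fragment), so depth was recovered (13.2 to 30.2 M fragments). Per-sample columns left unused numbered 0. The genome build, annotation and counting tool are not given in the sources used here, so overlapping or antisense genes are uncertain.

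The deposited FPKM already had the same median-ratio factor in each library (1.013), so dividing by it changed all libraries alike. They were tested as log2(FPKM + 1), a scale that understates changes of low genes. A filter of 0.5 FPKM in 4 or more libraries left 16530 genes, which were fitted in 1 model with 9 group means (limma 3.58.1, R 4.3.3, mean-variance trend), with Benjamini-Hochberg adjustment over all genes within each comparison. The fit was tested on simulated data. Figures used matplotlib 3.10.9.

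The regulators and gene lists were chosen with earlier results of these data known. All regulators are named, and of each other list up to 3 passing genes of largest fold change in a comparison. Med1 and the PPARα targets named without Adr 3 d replicate 3 were chosen after their values were seen. A few genes that these rules pick are not reported here. Promoters are from RefSeq, which held 68 of 82 subunit genes. Alternatives covered scaling, pseudocount (0.1), filters, length trend (loess, span 0.5), limma-voom, samples in the fit, covariates and leaving out each library. Other lists without Adr 3 d replicate 3, and correlations without it or within groups, were added after seeing the data.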

Additional observations from a re-analysis of the deposited data

Results flagged for a closer look

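Values of the 10 regulators and of 2 subunit means were checked for a library far from the rest of its group (Dixon's criterion), and 8 of 108 sets of values were picked out, where chance alone gives about 1 in 20, or 5.4. Adr 3 d replicate 3 was far below the other 3 libraries of its group in the mean log2(FPKM + 1) of nuclear respiratory subunits (6.39 against 7.81 to 7.93) and of mitochondrial genome subunits (9.17 against 11.3 to 11.5). Arrest 1 d replicate 3 was above its group in the nuclear subunit mean (8.46 against 8.15 to 8.20). Ppargc1a was high in Adr 0.5 d replicate 4 (19.4 FPKM against 8.88 to 9.70). Esrra was low in Arrest 1 d replicate 1 (21.7 FPKM against 31.3 to 32.9) and in Adr 7 d replicate 1 (19.4 FPKM against 29.6 to 30.4). Nrf1 was high in Adr 0.5 d replicate 3 (1.51 FPKM against 1.17 to 1.20), and Tfb1m in Arrest 3 d replicate 3 (2.80 FPKM against 1.44 to 1.59).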

How the results depend on the processing

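Over 2460 recomputed fold changes, 2447 kept their side of the threshold, 6 lost and 7 gained a call, and 0 calls changed direction. Only 1 fold change, Esrrg in Arrest at 1 day, was called as reported, so most of the 2447 were uncalled in both fits. That count therefore cannot show how firm a call is. Of the 2460 the sign changed in 162, none of them called and none over 0.24 in size as reported. The value of Ppargc1a in Adr at 3 days lay between -0.85 (without Adr 3 d replicate 1) and -0.13 (without replicate 3), and that of Ppargc1b in Adr at 7 days between -0.45 (without Adr 7 d replicate 2) and 0.01 (without replicate 1). Esrrg in Arrest at 1 day lay between -0.92 and -0.61 and kept its call in 15 of 21 alternatives. The call was lost with the replicate number as a block (adjusted p = 0.0617, limma) and with the number in the sample description as a covariate (adjusted p = 0.403), so that 0 regulators passed, and in 4 fits that left out 1 library. The description number is confounded with group in that comparison. Deviations of same-numbered libraries of different groups had a mean correlation of -0.01 over 144 pairs (lowest -0.38, highest 0.32). The labels do not say what the replicate number stands for, and the cause of the lost call was not tested. A fit of only the groups compared called 1 regulator in Arrest at 0.5 days (Esrrg, adjusted p = 0.037).

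Counts of regulators in fits that left out 1 library ranged from 0 to 2 in Arrest at 0.5 and 1 day, Adr at 1 day and the F test, and from 0 to 1 in Arrest at 3 days, the higher value always without Adr 3 d replicate 3. Counts of subunits in these fits ranged from 0 to 15 (Adr 0.5 days), 0 to 19 (Arrest 0.5 days), 0 to 14 (Adr 1 day) and 10 to 50 (Arrest 1 day), and subunit medians in Adr at 3 days from -0.40 to 0.12. In Arrest at 1 day subunits that passed numbered 10 by quantile normalisation, 35 scaled by fragments counted, 13 with the length trend removed, 34 with only the groups compared, 14 with the replicate block and 0 with the description number, which is confounded with group there. In Arrest at 0.5 days they numbered 0, 16, 0, 7, 1 and 0, and 1 without a filter. Adr subunits numbered 7 at 0.5 days both when scaled by fragments and with only the groups compared, and 13 at 1 day when scaled by fragments. No subunit fell in any alternative (0 calls). Subunit medians moved beyond the spread between libraries by quantile normalisation in Adr at 0.5 days (0.18) and Arrest at 1 day (0.22), and with the length trend removed in Adr at 0.5 days (0.23). Scaling by fragments moved the median of all genes by 0.10 in Adr at 1 day.

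Depth limits the low genes, Tfb1m, Nrf1 and Ppargc1b, and 4 libraries per group limit every comparison. The limma p-values as reported set a difference between groups against the spread between mice within groups. That spread is pooled over all 9 groups and moderated across genes.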
